A study of Homo sapiens with 12 samples.

Results

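Teriflunomide alone was compared with control in SBC3 spheroids. The treatment label chose the libraries: 3 carried the label Teriflunomide and 3 the label Control, together 6 of the 12 libraries of the series. SBC3 is an established human small cell lung cancer line, and all 6 libraries came from this line and from RNA purified with the same kit, followed by selection of messenger RNA. The other 6 libraries were exposed to lurbinectedin, alone or with teriflunomide, and served here to estimate the spread and, in a closing comparison, to show the same genes in that setting. The labels give no dose, exposure time or culture for a library, so p-values measure the spread between these libraries, which may be technical, and the results describe 1 cell line.

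Teriflunomide is the active metabolite of leflunomide. It inhibits dihydroorotate dehydrogenase, encoded by DHODH, an enzyme of the inner mitochondrial membrane that oxidises dihydroorotate to orotate and passes the electrons to ubiquinone. This is a step of de novo pyrimidine synthesis, which supplies UTP and CTP for RNA, dCTP and dTTP for DNA, and UDP-sugars for glycosylation. Proliferating cells depend on this route more than resting cells, which can salvage uridine.

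Values are raw read counts per gene, scaled to CPM, the counts per common library size after normalisation by TMM, a method that centres the bulk of genes. The 6 libraries held between 26956646 and 33222162 counts. A gene was called when its Benjamini-Hochberg adjusted p was under 0.05 in edgeR's quasi-likelihood test. Of 16683 genes tested, 1002 were called (6.01%), of which 647 were higher (3.88%) and 355 lower (2.13%) with teriflunomide. Counts of called members in the lists below are to be read beside these shares. Fold changes are given as log2 values, and the median over all genes tested was 0.03. Teriflunomide replicate 3 stood apart from the other 5 libraries. Its log CPM values correlated with those of replicates 1 and 2 at 0.977 and 0.979, where every other pair within these groups reached 0.995. Results that it moved are also given without it, from a fit that called 941 genes higher (5.51%) and 614 lower (3.6%) of 17072 (together 9.11%). Fits without control replicate 1, 2 and 3 called 180, 187 and 157 genes higher and 68, 78 and 59 lower. Without teriflunomide replicate 1 and 2, 766 and 445 were higher and 505 and 199 lower. List counts from fits that left out a library are to be read beside these totals. An alternative test, voom with sample quality weights, called 5467 genes, and its list counts are to be read beside that total. It gave replicate 3 a weight of 0.0798 and the other 5 libraries weights of 1.59 to 2.50. Counts from voom therefore rest little on replicate 3. Of the lineage markers of small cell lung cancer, YAP1 was at 236 to 343 CPM, NEUROD1 at 3.66 to 6.51 CPM and the neuroendocrine marker SYP at 14.1 to 17.5 CPM, whereas POU2F3 did not exceed 0.341 CPM and NCAM1 0.0681 CPM. The epithelial markers were divided, with KRT8 at 196 to 306 CPM and EPCAM at no more than 0.0334 CPM. Markers of leukocytes (PTPRC, at most 0.0681 CPM) and endothelium (VWF, at most 0.0335 CPM) were close to 0. The fibroblast markers were divided, with the collagen genes COL1A1 and COL1A2 at 214 to 276 CPM and DCN and LUM at 0 CPM in all 6 libraries.

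**Figure D1:**
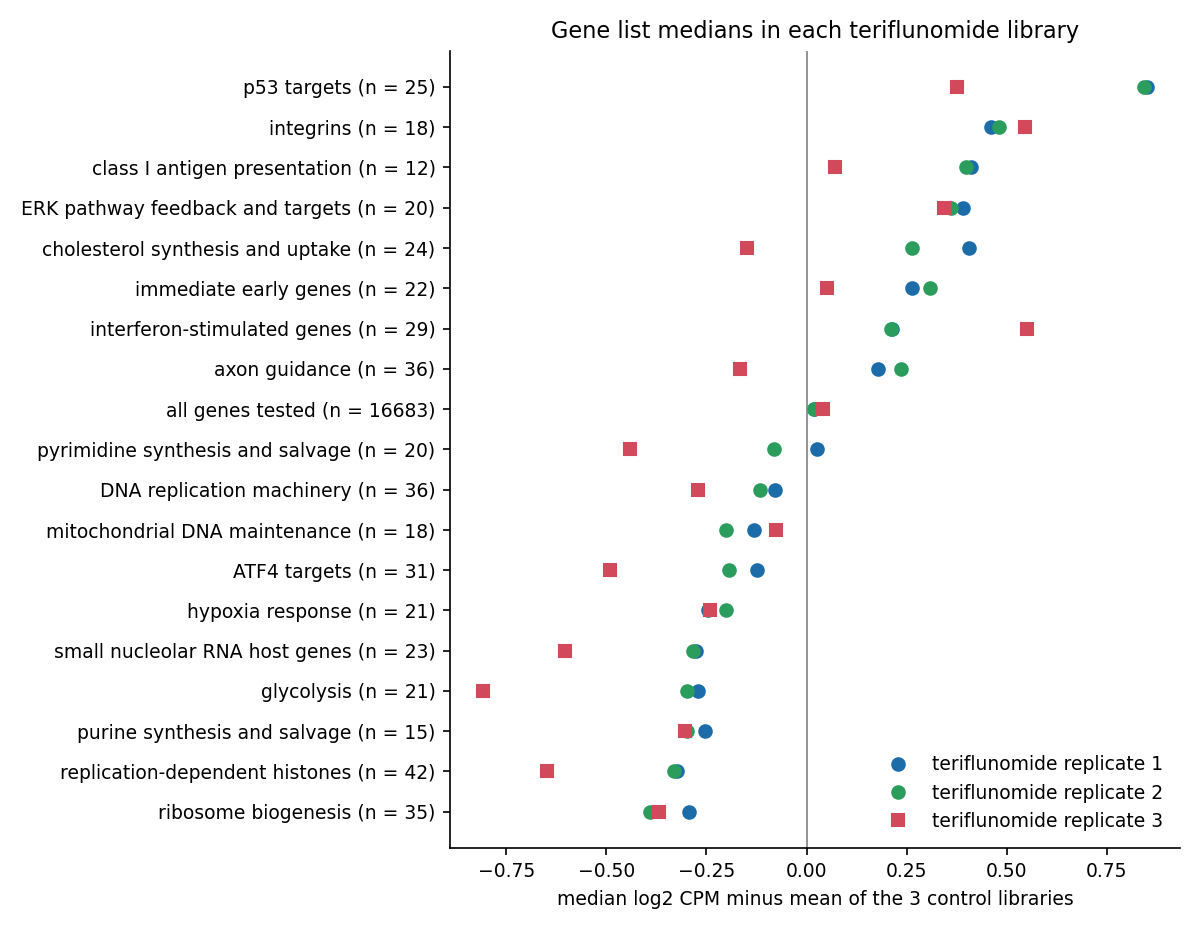
Each point is the median, over the tested genes of a list, of the log2 CPM in 1 teriflunomide library minus the mean of the 3 control libraries; n is the number of genes tested. Replicates 1 and 2 have the same sign in every list shown except pyrimidine genes. Replicate 3 departs from them in p53 targets, class I presentation, cholesterol, immediate early, interferon-stimulated and axon guidance genes. It also departs in glycolysis, ATF4 targets, small nucleolar RNA host genes, histones and pyrimidine genes. It lies near them in ribosome biogenesis, hypoxia response, purine synthesis, integrins and ERK feedback.

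The gene of the drug's target was lower. DHODH (chromosome 16, 72008588 to 72027664) was at 18.3, 17.8 and 19.2 CPM in the control libraries and at 13.1, 13.0 and 11.9 CPM with teriflunomide (log2 change -0.54 with an SE of 0.118, edgeR adjusted p = 0.0186). The groups did not overlap, as in 36.8% of all genes tested, and in whole spheroids fewer expressing cells and less RNA per cell cannot be told apart. The change was -0.50 without teriflunomide replicate 3. The call was lost when any 1 control library was left out, with adjusted p up to 0.104. Among 20 tested genes of pyrimidine synthesis and salvage, DHODH was the only one called, and the list's median was -0.19. That median moved to -0.03 without teriflunomide replicate 3. The list stood at -0.44 in that library and at 0.03 and -0.08 in the other two.

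Enzymes of purine synthesis and salvage were lower too. Of 15 tested, 4 were called lower (against 2.13% of all genes) and 0 higher, with a list median of -0.29 that was also -0.29 without replicate 3. GART, which carries 3 steps of the de novo pathway, was at 257, 266 and 258 CPM in control and 205, 189.9 and 186 CPM with teriflunomide (log2 change -0.43 with an SE of 0.0807, edgeR adjusted p = 0.00878). Every teriflunomide library lay below every control library, where 36.8% of all genes tested had groups that did not overlap. ADSL, which acts at a pair of later steps, fell (-0.49, edgeR adjusted p = 0.0169), as did IMPDH2 (-0.47, edgeR adjusted p = 0.0249), the enzyme that commits inosine monophosphate to guanine nucleotides. PRPS2, which makes the phosphoribosyl donor of both nucleotide pathways, was the fourth. The count was 1, 0 and 0 without control replicate 1, 2 and 3, and 4, 3 and 7 without teriflunomide replicate 1, 2 and 3. Over all genes the lower calls, 355 with all libraries, were 68, 78 and 59 and then 505, 199 and 614 in the same fits.

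The largest rises among well expressed genes led with DUSP6, the phosphatase that switches off ERK and is itself induced by it. DUSP6 was at 6.33, 5.35 and 5.497 CPM in the control libraries and at 19.9, 18.8 and 16.6 CPM with teriflunomide (log2 change 1.69 with an SE of 0.147, edgeR adjusted p = 5.55e-05), a rise of 3.22-fold. All 3 teriflunomide libraries were far above the controls, with replicate 3 the lowest of them. Of 20 tested feedback inhibitors and targets of the ERK pathway, 7 were higher (against 3.88% of all genes) and 0 lower, with a median of 0.40. DUSP4, a second ERK phosphatase, rose by 0.96 (edgeR adjusted p = 0.00182), and SPRY2, an inhibitor of receptor signalling, by 0.82 (edgeR adjusted p = 0.00271). The list counted 5, 6 and 4 higher members without control replicate 1, 2 and 3 and 6, 6 and 10 without teriflunomide replicate 1, 2 and 3. Immediate early transcription factors rose in 5 of 22 cases, led by JUN, which went from 3.59, 4.05 and 4.18 CPM to 9.56, 9.28 and 8.11 CPM (log2 change 1.19 with an SE of 0.144, edgeR adjusted p = 7.66e-04). JUND (0.57, edgeR adjusted p = 0.00393) and EGR1 (1.16, edgeR adjusted p = 0.00414) rose as well. EGR1 was at 41.1, 46.7 and 69.2 CPM in the 3 teriflunomide libraries, so that replicate 3 was the highest. The list median was 0.30 (0.26, 0.31 and 0.05 by library), and its count was 4, 4 and 3 without control replicate 1, 2 and 3.

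Besides DUSP6, the 12 largest rises held NECTIN4 and SERPINE2. NECTIN4, an adhesion molecule of the nectin family, was at 2.28, 2.44 and 2.54 CPM in control and 6.95, 7.46 and 7.80 CPM with teriflunomide (log2 change 1.61 with an SE of 0.123, edgeR adjusted p = 3.23e-05). SERPINE2, a secreted inhibitor of serine proteases, was at 16.1, 16.7 and 16.3 CPM and 43.9, 46.2 and 44.5 CPM (log2 change 1.46 with an SE of 0.112, edgeR adjusted p = 3.23e-05). In both genes the spread within each group was small against the distance between groups. ECM1, an extracellular matrix glycoprotein, rose by 1.55, ABCA12, a lipid transporter, by 1.47 and KITLG, the ligand of the receptor KIT, by 1.32. The other members of the 12 were the chemorepellent DRAXIN (1.58), the ceramidase ACER2 (1.55), the transcription factor KLF5 (1.52), the inositol phosphatase INPP5D (1.497), TRIM22 (1.37), an interferon-inducible ubiquitin ligase, and GADD45A (1.35), a growth arrest gene. All 12 were called in each of the 6 fits that left out 1 library, and the largest adjusted p in those fits was 0.0441, for KITLG. p53 targets, of which 14 of 25 were higher with a median of 0.66, were the list with the largest share called, and 9, 8 and 9 were called without control replicate 1, 2 and 3 and 14, 12 and 21 without teriflunomide replicate 1, 2 and 3. BTG2, TP53INP1 and FAS led them at 1.30, 1.29 and 1.17.

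**Figure D2:**
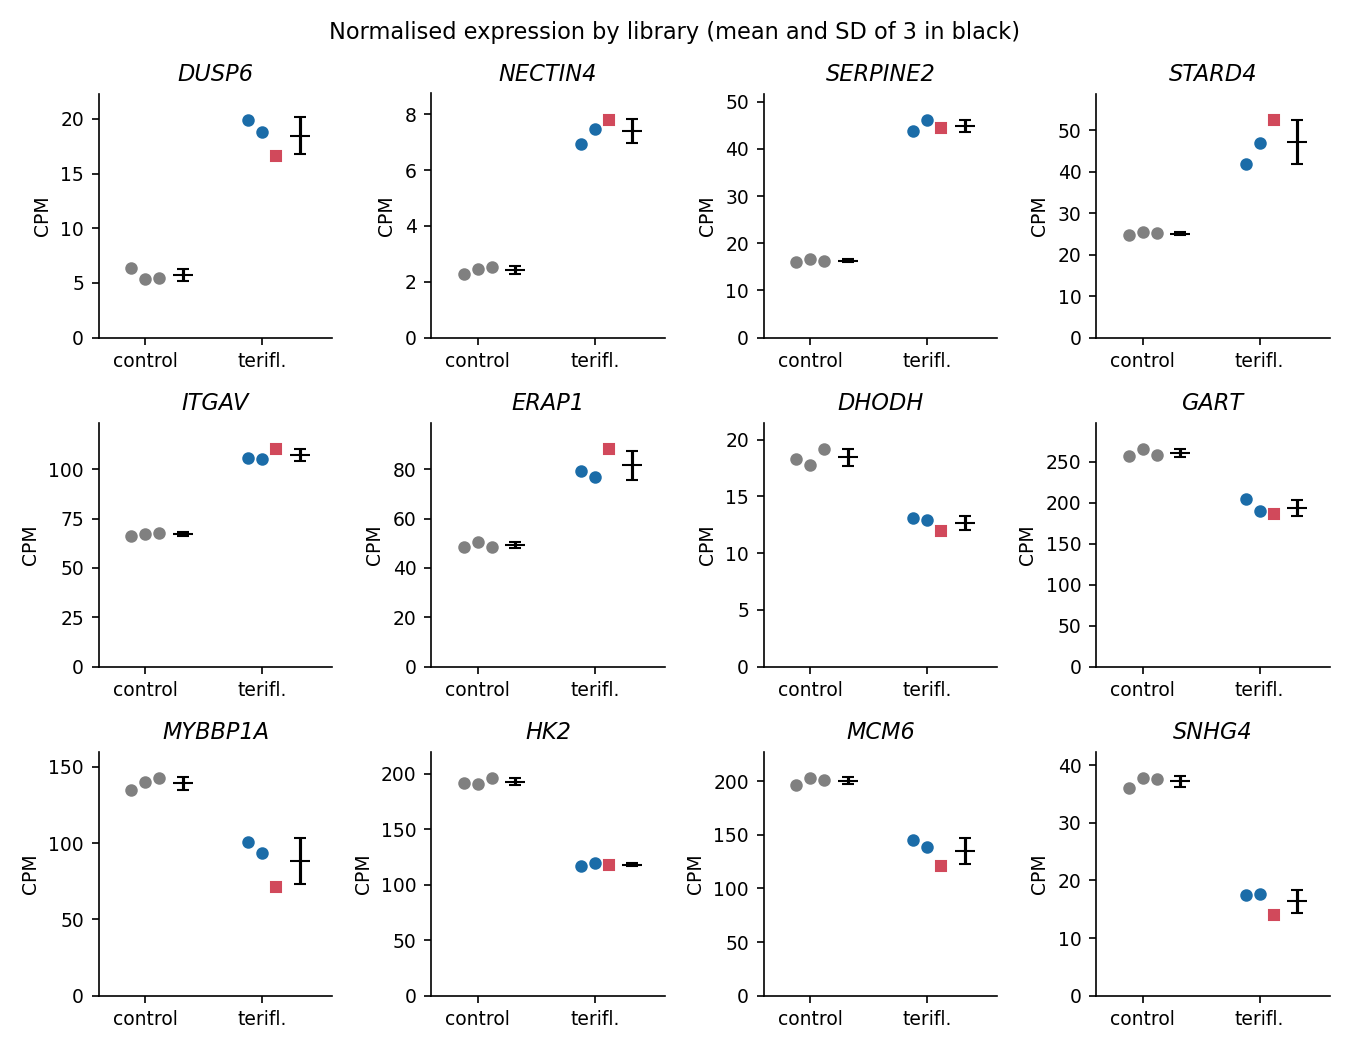
Normalised expression in CPM of 12 named genes in the 3 control libraries (grey) and the 3 teriflunomide libraries (blue circles for replicates 1 and 2, red square for replicate 3), with mean and SD of each group in black; the y axes start at 0. All 12 are called genes, and their teriflunomide libraries lie wholly above or wholly below the control libraries. That also holds for 1000 of the 1002 called genes and for 36.8% of all genes tested. DUSP6 has its lowest teriflunomide value, 16.6 CPM, in replicate 3.

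Integrins, the receptors that join cells to matrix, rose in 4 of 18 tested members and fell in none, with a list median of 0.52. ITGAV, the alpha subunit of vitronectin receptors, was at 66.3, 67.4 and 67.9 CPM in control and 106, 105 and 110.5 CPM with teriflunomide (log2 change 0.67 with an SE of 0.121, edgeR adjusted p = 0.00717). Its partner ITGB3 was at 5.70, 6.15 and 5.68 CPM and 9.79, 9.97 and 10.5 CPM (log2 change 0.79 with an SE of 0.143, edgeR adjusted p = 0.00727). Both genes were near-constant within each group. ITGA11, a collagen-binding subunit, rose by 2.07 (edgeR adjusted p = 0.00156) from a low level, 0.670, 0.368 and 0.329 CPM, to 2.14, 1.89 and 1.70 CPM. ITGA3, which pairs with ITGB1 in a laminin receptor, was the fourth called. FN1, encoding fibronectin, a ligand of several integrins, rose by 0.48 (edgeR adjusted p = 0.0294; called in none of the fits without a control library). The integrin count was 2, 3 and 2 without control replicate 1, 2 and 3 and 5, 5 and 7 without teriflunomide replicate 1, 2 and 3. Axon guidance genes, which also act in cell movement, gave 5 higher and 1 lower of 36, with a median of 0.06. By library the median was 0.18, 0.24 and -0.17, and without replicate 3 it was 0.20 with 11 genes higher and 2 lower. The higher count was 2, 3 and 2 without control replicate 1, 2 and 3, and the lower count 0 in each of these fits. NRP2, a receptor for semaphorins and VEGF, went from 17.0, 14.8 and 14.4 CPM to 30.9, 29.6 and 30.3 CPM (log2 change 0.97 with an SE of 0.128, edgeR adjusted p = 0.00127), and its paralog NRP1 was called too. EFNB2, a membrane-bound ephrin, rose by 0.89 (edgeR adjusted p = 0.0118, a call lost without control replicate 1 or 3).

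Cholesterol synthesis and uptake, which SREBP-2 drives, showed 5 higher and 0 lower genes of 24, although the list median was only 0.15. By library the median was 0.40, 0.26 and -0.15, so replicate 3 had the opposite sign. Without it the median was 0.33 and 9 genes were called. Without control replicate 1, 2 and 3 the counts were 1, 1 and 1, and without teriflunomide replicate 1 and 2 they were 3 and 3. STARD4, a carrier of cholesterol within the cell, was at 24.6, 25.4 and 25.2 CPM in control and 41.9, 47.0 and 52.5 CPM with teriflunomide (log2 change 0.91 with an SE of 0.131, edgeR adjusted p = 0.00191), and was called in every fit that left out a library. SC5D, a late desaturase of the pathway, was at 88.7, 91.5 and 83.8 CPM and 137, 128 and 188 CPM (log2 change 0.78 with an SE of 0.162, edgeR adjusted p = 0.0155). FDFT1, the squalene synthase, rose by 0.36 (edgeR adjusted p = 0.0307). HMGCS1, the synthase that makes HMG-CoA and was named here after its values were seen, rose from 122, 132 and 120.2 CPM to 166, 144 and 193 CPM (log2 change 0.43 with an SE of 0.108, edgeR adjusted p = 0.0344). ACSS2, which makes acetyl-CoA for lipid synthesis, rose by 0.66 (edgeR adjusted p = 0.0245). It was the only called gene of 15 in fatty acid synthesis, where 6.01% of all genes were called. The calls of SC5D, FDFT1, HMGCS1 and ACSS2 were lost in each fit without a control library.

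Promoters of cholesterol genes were read from RefSeq (GRCh38.p14) windows of 300 bases, 250 before and 50 after the start. The motif CCAAT, searched on both strands, was present in 15 of 18 cholesterol genes with a window, compared with 37.1% of the 11362 tested genes that had one, 33.3% of those called higher and 39.0% of those called lower. It was also frequent in lists with 0 genes called higher, in 17 of 20 endoplasmic reticulum stress genes, 34 of 39 replication-dependent histone genes and 23 of 30 mitotic genes. Another motif searched, TCACNCCAC, where N is any base, was present in 1 of the 18 cholesterol windows and in 1.06% of all 11362. The bases before the start in GENCODE 29 are shown for STARD4 (chr5:111512591-111512785, minus strand) and HMGCS1 (chr5:43313513-43313662, minus strand), each 5′ to 3′ on the strand of its gene, with CCAAT or its reverse complement in capitals.
STARD4: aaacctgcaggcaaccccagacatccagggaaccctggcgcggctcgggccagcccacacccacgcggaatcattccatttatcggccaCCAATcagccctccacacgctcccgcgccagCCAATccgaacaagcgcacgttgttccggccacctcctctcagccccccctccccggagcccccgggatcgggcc
HMGCS1: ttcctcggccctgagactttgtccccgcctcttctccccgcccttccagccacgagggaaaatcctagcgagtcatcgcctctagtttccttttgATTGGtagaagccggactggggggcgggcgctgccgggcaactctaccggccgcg
That start lies before the RefSeq start in both genes. Counted from the RefSeq start, the first match lay 161 bases before it in STARD4 and 155 bases before it in HMGCS1. A match describes the letters of the window only. The 9 motifs searched were chosen after the values were seen.

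Antigen presentation and interferon-stimulated genes were higher in part. Of 12 tested genes of the class I pathway, 4 were called higher and 0 lower, with a median of 0.31. By library the median was 0.41, 0.40 and 0.07, and without replicate 3 it was 0.42. ERAP1, which trims peptides in the endoplasmic reticulum, was at 48.4, 50.6 and 48.5 CPM in control and 79.2, 77.0 and 88.3 CPM with teriflunomide (log2 change 0.73 with an SE of 0.103, edgeR adjusted p = 0.00172). Its neighbour and paralog ERAP2 rose by 1.45 (edgeR adjusted p = 0.00405) from 0.838, 1.47 and 1.64 CPM to 2.78, 3.68 and 4.43 CPM. Both kept their calls in all fits that left out a library, whereas TAPBP, the peptide-loading chaperone tapasin, rose by 0.38 (edgeR adjusted p = 0.0300) and was called only without teriflunomide replicate 3 among those fits. B2M, the light chain of class I molecules, was the fourth, and its call was lost without replicate 3 (edgeR adjusted p = 0.0430 with all libraries and 0.0511 without that one). Without control replicate 1, 2 and 3 the class I counts were 2, 2 and 2. Without teriflunomide replicate 1, 2 and 3 they were 2, 2 and 5. Interferon-stimulated genes gave 3 higher and 0 lower of 29. IFIT3, an antiviral effector, went from 30.5, 31.3 and 28.2 CPM to 46.8, 44.1 and 57.5 CPM (log2 change 0.72 with an SE of 0.119, edgeR adjusted p = 0.00443), and HERC6, a ubiquitin ligase gene, rose by 1.21 (not called without control replicate 3). Their list median of 0.36 became 0.22 without replicate 3, and the count moved between 1 without control replicate 3 and 7 without teriflunomide replicate 1. Of 19 tested genes of NF-kB signalling and cytokines, the adhesion receptor ICAM1 (0.91) and the cytokine LIF (1.64) were higher and 0 were lower, in each left-out-library fit too. LIF was low, at 1.04, 0.568 and 0.926 CPM in control and 2.96, 3.08 and 1.87 CPM with teriflunomide.

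Glycolysis was the metabolic list with the most called members on the lower side. Of 21 tested genes, 8 fell and 1 rose, with a median of -0.44. HK2, the hexokinase that traps glucose in the cell, was at 191, 191 and 196 CPM in control and 117, 119.8 and 118 CPM with teriflunomide (log2 change -0.71 with an SE of 0.0827, edgeR adjusted p = 5.45e-04). LDHA, which reduces pyruvate to lactate, was at 1499.9, 1534 and 1412 CPM and 895, 882 and 943 CPM (log2 change -0.71 with an SE of 0.0911, edgeR adjusted p = 0.00111). In both genes replicate 3 lay with replicates 1 and 2, and no teriflunomide library came near a control. PGAM1, phosphoglycerate mutase, fell from 213, 206 and 204 CPM to 147, 137 and 98.2 CPM (log2 change -0.70 with an SE of 0.126, edgeR adjusted p = 0.00682), with replicate 3 the lowest. The lactate exporter SLC16A3, PGK1, PFKP, GPI and GAPDH were the other lower genes, and the glucose transporter SLC2A3 was the 1 that rose, a call kept only in the fit without replicate 3 among the 6 that left out a library. The list stood at -0.27, -0.30 and -0.81 in the 3 libraries, and without replicate 3 its median was -0.28 with 11 genes lower. Without control replicate 1, 2 and 3 the number lower was 3, 3 and 3, and without teriflunomide replicate 1 and 2 it was 11 and 8. Hypoxia response genes, several of which HIF-1 induces along with glycolysis, gave 4 lower and 0 higher of 21 (median -0.21). BNIP3, a mitophagy receptor, was at 175, 176 and 170.0 CPM and 104, 113 and 119.8 CPM (log2 change -0.63 with an SE of 0.0859, edgeR adjusted p = 0.00152). PFKFB3, a regulator of glycolytic flux, changed by -0.57 and CA9, a carbonic anhydrase, by -1.07; neither was called without any 1 of the control libraries, and exons of CA9 overlap ARHGEF39. The hypoxia count was 1, 1 and 1 without control replicate 1, 2 and 3 and 3, 5 and 6 without teriflunomide replicate 1, 2 and 3.

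The promoter of LDHA, a gene with several regulatory E-boxes, is shown up to the start in GENCODE 29 (chr11:18394313-18394559, plus strand, GRCh38.p14 from RefSeq), 5′ to 3′, with the palindrome CACGTG in capitals.
LDHA: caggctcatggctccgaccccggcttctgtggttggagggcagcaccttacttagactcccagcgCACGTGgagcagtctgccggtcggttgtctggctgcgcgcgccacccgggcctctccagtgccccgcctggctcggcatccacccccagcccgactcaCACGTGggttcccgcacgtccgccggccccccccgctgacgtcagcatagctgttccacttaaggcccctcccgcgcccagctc
Its matches lay 185 and 87 bases before the RefSeq start, which lies just after the end of the printed stretch. CACGTG occurred in 3 of 19 glycolysis windows and in 10.03% of all 11362 windows.

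Nucleolar genes formed a further lower group. Of 35 tested genes of ribosome biogenesis and RNA polymerase I, 8 fell and 0 rose, and 3 of the 35 had a positive fold change; the median was -0.30. Its level in replicate 3 was near that of the other two: -0.29, -0.39 and -0.37. MYBBP1A, a nucleolar protein that also binds p53, was at 135, 140.2 and 143 CPM in control and 101, 93.3 and 71.5 CPM with teriflunomide (log2 change -0.65 with an SE of 0.118, edgeR adjusted p = 0.00699). DKC1, which pseudouridylates ribosomal RNA, was at 156, 162 and 155 CPM and 122, 118 and 121 CPM (log2 change -0.39 with an SE of 0.0886, edgeR adjusted p = 0.0228). UBTF, the factor that opens ribosomal DNA to RNA polymerase I, went from 209.9, 225 and 231 CPM to 175, 160.1 and 168 CPM (log2 change -0.40 with an SE of 0.0925, edgeR adjusted p = 0.0237). No teriflunomide library reached a control value in these genes, though the changes were modest. Groups did not overlap in 1000 of the 1002 called genes. POLR1A, POLR1E, RRP12, BOP1 and FBL were the other 5. Without replicate 3 the count was 19, whereas without control replicate 1, 2 and 3 it was 1, 1 and 1, MYBBP1A being called in all of these fits. Without teriflunomide replicate 1 and 2 it was 12 and 3.

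CACGTG was present in the window of 10 of 29 ribosome biogenesis genes that had one, compared with 10.03% of all windows, 15.9% of those of genes called lower and 7.97% of those of genes called higher. Matches in MYBBP1A and FBL lay after the start and are not printed. The last 30 bases before the RefSeq start are shown for 3 genes in which it lies there, NAT10 (chr11:34105599-34105628, plus strand), UTP4 (chr16:69132619-69132648, plus strand) and UTP20 (chr12:101280075-101280104, plus strand), 5′ to 3′ with CACGTG in capitals.
NAT10: tttaatgcgcttgcgCACGTGctgtctacc
UTP4: tgagagcgcgcgcgCACGTGgggccggggc
UTP20: gcgccgttcttttttccgtcCACGTGaccc
These 3 genes were chosen for their sequence after the values were seen. NAT10, which acetylates ribosomal RNA, was at 163, 171 and 171 CPM in control and 146, 135 and 130.4 CPM with teriflunomide. Its log2 fold change of -0.29 was not called (edgeR adjusted p = 0.0535), nor were those of UTP4 (-0.31, edgeR adjusted p = 0.0511) and UTP20 (-0.30, edgeR adjusted p = 0.0847), both parts of the small-subunit processome. All 3 were called without replicate 3, at an edgeR adjusted p of 0.0389, 0.0404 and 0.0202.

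Host genes of small nucleolar RNAs, whose introns give the guides for ribosomal RNA modification, gave 4 lower and 0 higher of 23, with a median of -0.44 (-0.28 without replicate 3). SNHG4 was at 36.0, 37.8 and 37.6 CPM in control and 17.5, 17.6 and 14.0 CPM with teriflunomide (log2 change -1.18 with an SE of 0.127, edgeR adjusted p = 3.58e-04); its exons overlap SIL1, and reads of the pair may be mixed. SNHG3 changed by -0.94 and SNHG1 by -0.58, and each of these 3 was called in all fits that left out a library. The list kept between 3 and 7 lower members in those fits. Of 79 cytosolic ribosomal protein genes 1 was lower and 0 higher, where 2.13% of all genes were lower and 3.88% higher. Their median of -0.11 was -0.02 without replicate 3. Among 31 ATF4 targets, 4 were lower and 1 higher (median -0.19, and by library -0.12, -0.19 and -0.49). SLC7A1, the arginine transporter, changed by -0.62 (edgeR adjusted p = 0.00740; 0.0508 without control replicate 3), and DDIT4, an inhibitor of mTORC1, went from 136, 131 and 129.7 CPM to 84.9, 88.7 and 54.4 CPM (log2 change -0.80 with an SE of 0.147, edgeR adjusted p = 0.00807). ATF3 rose by 0.79 (edgeR adjusted p = 0.00832, a call lost without control replicate 3). The lower count for ATF4 targets was 2, 2 and 1 without control replicate 1, 2 and 3 and 7, 3 and 8 without teriflunomide replicate 1, 2 and 3. Among 20 cytosolic aminoacyl-tRNA synthetases 2 were lower, led by YARS1 (-0.43), and among 18 heat shock genes 2 were lower, led by HSP90AB1 (-0.42), which fell from 2700.1, 2806 and 2689 CPM to 2083, 1964 and 2065 CPM. Both lists had 0 called members in each fit without a control library.

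DNA replication genes gave 7 lower and 0 higher of 36, with a median of -0.11. The 7 were MCM2, MCM4, MCM5, MCM6 and MCM7, which are subunits of the replicative helicase, and the polymerase subunits POLE and POLD2. MCM6 was at 197, 203 and 201 CPM in control and 145, 138 and 121 CPM with teriflunomide (log2 change -0.57 with an SE of 0.0913, edgeR adjusted p = 0.00353). MCM5 changed by -0.77 and MCM4 by -0.36, and the list had 1 called member without control replicate 1, 2 or 3. Without teriflunomide replicate 1, 2 and 3 the counts were 8, 3 and 7. Replication-dependent histone genes, whose messages mostly lack a poly(A) tail and are poorly caught in such libraries, gave 5 lower and 0 higher of 42, and 2, 4 and 3 lower without control replicate 1, 2 and 3. H4C3 was at 5.90, 5.78 and 8.45 CPM and 2.32, 2.66 and 1.499 CPM (log2 change -1.63 with an SE of 0.232, edgeR adjusted p = 0.00182), and histone genes of near-identical sequence may share its reads. Among G1 regulators the repressor E2F7 rose (0.71, edgeR adjusted p = 0.00152), the activator E2F2 fell (-0.92, edgeR adjusted p = 0.0249; not called without any 1 control library), and the kinase inhibitor CDKN2B rose (1.21, edgeR adjusted p = 0.0239; 0.0752 without replicate 3). Of 24 genes of homologous recombination and the Fanconi pathway, RAD51C alone was called, where 3.88% of all genes were higher. RAD51C was at 26.0, 26.3 and 25.9 CPM in control and 42.8, 39.6 and 51.5 CPM with teriflunomide (log2 change 0.77 with an SE of 0.109, edgeR adjusted p = 0.00175). Among 35 mitotic genes 0 were called in edgeR, with 8 at an unadjusted p under 0.05, 4 called by DESeq2 and 12 by voom with quality weights, and 3 were lower without replicate 3. In the MYC network, MYCL fell (-0.60, edgeR adjusted p = 0.0233) and the MYC antagonist MXD1 rose (0.45, edgeR adjusted p = 0.0284); both calls were lost without any 1 control library.

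Mitochondrial genes are described by the genome that encodes them. Of 18 genes that maintain mitochondrial DNA 3 were lower: TFB2M, a transcription factor of the organelle (-0.48, edgeR adjusted p = 0.0218), TWNK, its helicase (-0.49, edgeR adjusted p = 0.0497), and ATAD3B, a nucleoid-associated ATPase with close paralogs (-1.21, edgeR adjusted p = 0.0237). ATAD3B was at 29.2, 28.5 and 29.8 CPM in control and 16.2, 15.9 and 5.66 CPM with teriflunomide, so its size rested on replicate 3, without which it was -0.86. Without control replicate 1, 2 and 3 this list had 0 called members. Of 77 mitochondrial ribosomal protein genes 2 were lower, near the share of all genes (2.13%). They included MRPL3 (-0.35, edgeR adjusted p = 0.0354), and the count was 0 without any 1 control library. Of 76 nuclear respiratory chain subunits 0 were called in edgeR, with 14 at an unadjusted p under 0.05, 4 called by DESeq2 and 22 by voom. DNM1L, which encodes the fission GTPase DRP1, was at 231, 244 and 236 CPM in control and 225, 235 and 334 CPM with teriflunomide (log2 change 0.16 with an SE of 0.131, edgeR adjusted p = 0.474). Only replicate 3 lay above the controls, and the difference was -0.05 without it. Of 14 fission and fusion genes 0 were called in edgeR and in DESeq2, with 3 at an unadjusted p under 0.05 and 5 called by voom. The 13 proteins encoded by the mitochondrial genome had a median of 1.23 and 0 calls in edgeR and DESeq2, although all 13 had an unadjusted p under 0.05 in edgeR; voom called 4. Their median in the 3 libraries was 0.27, 0.20 and 2.26. MT-CO1, a subunit of cytochrome oxidase, was at 9429, 11072 and 10631 CPM in control and 15547, 15359 and 41063 CPM with teriflunomide. The mean difference without replicate 3 was 0.57 (edgeR adjusted p = 0.273).

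Among the largest falls outside these lists was DDN, which encodes dendrin, a cytoskeletal protein of neurons and podocytes. It was at 45.5, 44.8 and 46.3 CPM in control and 19.5, 16.4 and 9.16 CPM with teriflunomide (log2 change -1.60 with an SE of 0.205, edgeR adjusted p = 0.00113), and its exons overlap DDN-AS1. LINC00641, a long noncoding RNA, went from 42.1, 44.7 and 44.3 CPM to 16.2, 19.3 and 22.0 CPM (log2 change -1.19 with an SE of 0.157, edgeR adjusted p = 0.00128). Here replicate 3 was the highest of the teriflunomide libraries but still far below the controls. ZNF276, whose exons overlap FANCA, changed by -1.20, ZBTB12, a zinc finger gene, by -1.12, MATK, a kinase that restrains Src-family kinases, by -1.15, and LEPR, the leptin receptor gene with exons shared with LEPROT, by -1.16. All 6 were called in each fit that left out a library. RAC3, a small GTPase, changed by -1.18 (-0.82 without replicate 3), CTXN1 by -1.08 (-0.76) and TRMT61A, a transfer RNA methyltransferase, by -1.07 (-0.71). These 3 had their lowest value in replicate 3, as at 42.6, 38.3 and 13.8 CPM for RAC3, and lost the call without any 1 control library. JAG2, a Notch ligand, changed by -0.79 and was the 1 called gene of 16 in the Notch pathway. TIPARP, a target of the aryl hydrocarbon receptor, rose (0.53, edgeR adjusted p = 0.0399) as the 1 called gene of 6 in that pathway. Both calls were lost without any 1 control library, and 6.01% of all genes were called. In edgeR 0 of 18 NRF2 targets were called (4 at an unadjusted p under 0.05, 1 by DESeq2, 6 by voom). It also called 0 of 14 citric acid cycle enzymes, 31 proteasome subunits and 5 neuroendocrine genes, for which the same 3 counts were 3, 1 and 6, then 4, 3 and 6, and then 0, 0 and 1.

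Most calls did not need replicate 3. Of the 1002 genes called, 908 were also called without it, all in the same direction, as 580 higher and 328 lower genes. The 94 genes called only with it comprised 67 higher and 27 lower. Another 642 were called only without it, 359 higher and 283 lower. For 321 of those 359 higher genes replicate 3 lay below both other teriflunomide libraries. SESN2, a stress-induced regulator of mTORC1, was at 63.4, 61.1 and 64.0 CPM in control and 119, 115 and 51.8 CPM with teriflunomide. Its replicate 3 fell below the controls, and its log2 fold change was 0.60 with all libraries and 0.89 without that one (edgeR adjusted p = 0.120 and 1.61e-05). The receptor tyrosine kinase EPHA2 (72.5, 74.2 and 39.4 CPM against 48.8, 43.4 and 47.7 CPM in control) had its replicate 3 below the controls too, as had the p53 targets PLK3 and PHLDA3 and the sphingomyelinase SMPD1. The transporter SLC12A4 and the receptor NGFR had it within the range of the controls. DUSP14 was called only without replicate 3 too, but its groups did not overlap. Among the calls that needed replicate 3 was FRMD4B (0.201, 0.201 and 0.388 CPM in control, 0.586, 0.659 and 1.26 CPM with teriflunomide), a gene of low level in both groups. TUBB3, a neuronal tubulin, was another, at 1.04, 0.669 and 0.866 CPM and 0.469, 0.449 and 0.204 CPM.

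Transcript GC content moved with this library. Across 16466 nuclear genes with a known GC content, the difference from control had a Spearman rho with GC of -0.0740 in replicate 1, -0.0778 in replicate 2 and -0.574 in replicate 3. Genes are not independent replicates, so these carry no p. Single control libraries against the other two gave rho between -0.297 and 0.242. In the tenth of genes lowest in GC, the median difference from control was 0.06 in replicate 1, 0.06 in replicate 2 and 0.51 in replicate 3. In the tenth highest in GC it was -0.03, -0.03 and -0.80. The genes called only without replicate 3 had a median GC of 55.0% where higher and 48.2% where lower, compared with 48.5% over all genes tested. With a GC offset fitted to each library, 2106 genes were called (12.6%; 6.71% higher and 5.91% lower), and 853 of the 908 genes were among them in the same direction. The lower counts were then 18 for ribosome biogenesis, 13 for glycolysis, 12 for DNA replication and 9 for purine synthesis, and the higher counts 9 for ERK feedback, 8 for integrins, 6 for class I presentation and 5 for cholesterol genes. What made replicate 3 differ was not tested.

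**Figure D3:**
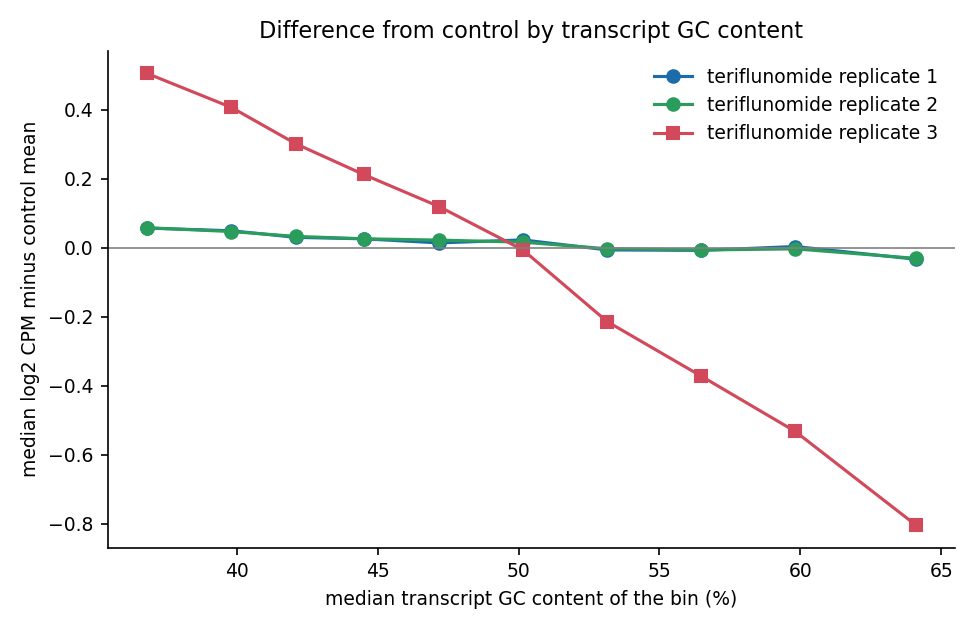
Median difference in log2 CPM from the mean of the 3 control libraries, for each teriflunomide library, in 10 bins of nuclear genes by transcript GC content (x axis, bin median in percent). Replicates 1 and 2 stay near 0 in all bins, while replicate 3 runs from 0.51 in the lowest bin to -0.80 in the highest.

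Some genes stood apart in replicate 3, and those named here had the largest differences between it and the other two teriflunomide libraries. PLBD2, a lysosomal protein gene, was at 157, 161 and 533 CPM in the teriflunomide libraries and 110.1, 117 and 122 CPM in control. The imprinted growth factor IGF2, whose exons overlap IGF2-AS, was at 1258, 1313 and 3768 CPM and 1365, 1392 and 1447 CPM. LINC00342, COPG2IT1 and ID2-AS1 were also among the 8 highest, as were MTATP6P1, MTCO2P12 and MTND2P28, nuclear copies of mitochondrial genes whose reads may come from the organelle. At the other end, SNRPB, a core splicing protein, was at 138, 129 and 28.2 CPM with teriflunomide and 168, 151 and 162 CPM in control, and MRPL12, a mitochondrial ribosomal protein, at 12.5, 11.5 and 2.28 CPM and 15.2, 15.6 and 16.8 CPM. None of these genes was called with all libraries. The share of counts on the mitochondrial genome was 6.26%, 7.17% and 6.97% in the control libraries and 8.42%, 8.43% and 22.6% with teriflunomide. Replication-dependent histone genes took 0.0140%, 0.0129% and 0.0144% in control and 0.0127%, 0.0124% and 0.00840% with teriflunomide. The nuclear RNAs MALAT1 and NEAT1 took 0.0339%, 0.0327% and 0.0363% in control and 0.0417%, 0.0482% and 0.0531% with teriflunomide. For these 3 shares the groups did not overlap, and the exact two-sided permutation p was 0.1, the smallest that 3 against 3 allows (0.133 after Benjamini-Hochberg adjustment over 4 shares). Cytosolic ribosomal protein genes took 5.32% to 5.66% in control and 3.55% to 5.45% with teriflunomide (exact permutation p = 0.6).

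The same drug was also given together with lurbinectedin, and the combination against lurbinectedin rests on 6 other libraries, which gave no mean to the comparisons above but shared the expression filter, the normalisation and the estimate of the spread with them. Of the 647 genes higher with teriflunomide alone, 505 (78.1%) had a positive fold change there, where 53.3% of all genes did. Of the 355 lower genes, 285 (80.3%) had a negative one, where 46.7% of all genes did. The median changes were 0.78 alone and 0.18 with lurbinectedin for the higher genes, and -0.63 and -0.20 for the lower genes. The genes were chosen by their call with teriflunomide alone, which raises the size of the first value of each pair, so the pairs give no measure of a difference. Among the 16683 genes, 939 were higher and 611 lower in the fit without teriflunomide replicate 3. Of these, 645 (68.7%) of the higher genes were positive with lurbinectedin and 465 (76.1%) of the lower genes negative. In edgeR 0 genes were called in the combination against lurbinectedin, with 2599 at an unadjusted p under 0.05, 584 called by DESeq2 and 2677 by voom with quality weights. Differences from lurbinectedin also moved with GC content (rho -0.331), and what part this had was not tested. The difference between both settings was itself called for 43 genes (0.258%) in edgeR. In fits without control replicate 1, 2 and 3 it was called for 6, 2 and 2 genes. DUSP6, SERPINE2, BTG2 and JUN were among the 43, with changes of 1.69, 1.46, 1.30 and 1.19 alone and of 0.23, 0.27, -0.08 and -0.08 with lurbinectedin. ITGAV and ITGB3 were not among them, with 0.67 and 0.79 alone and 0.64 and 1.01 with lurbinectedin, and neither was DHODH, with -0.54 and -0.40. The lists differed in this setting. A positive fold change was seen in 14 of 18 integrins and 13 of 20 ERK feedback genes. It was seen in only 3 of 24 cholesterol genes, 4 of 12 class I genes and 12 of 25 p53 targets. Of the lower lists, 1 of 35 ribosome biogenesis genes and 4 of 21 glycolysis genes were positive.

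**Figure D4:**
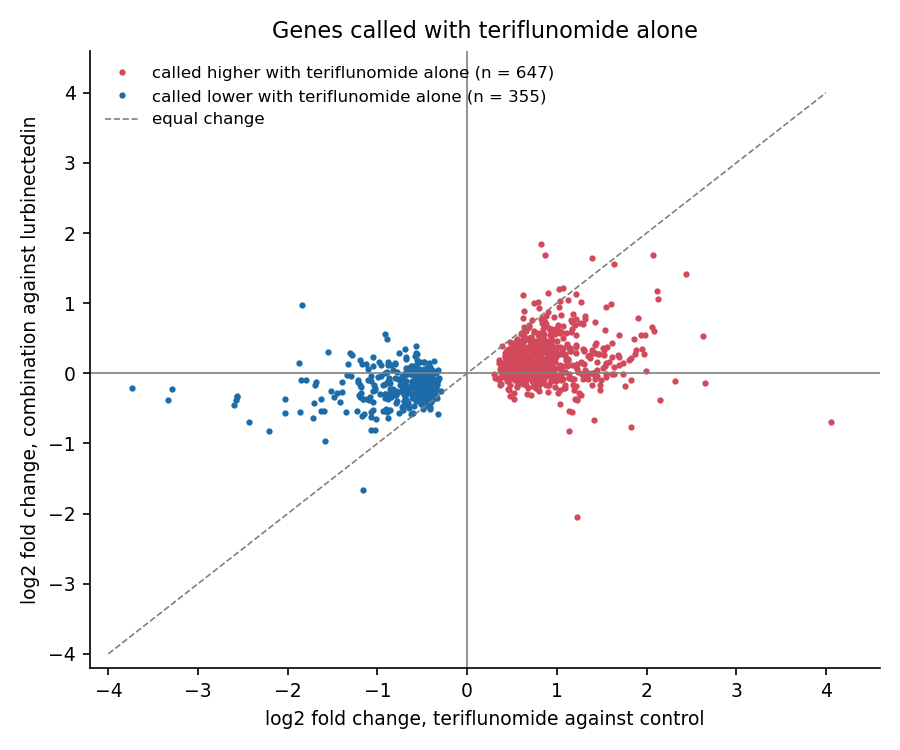
Log2 fold change of genes called with teriflunomide alone (x axis, against control) and of the same genes in the combination against lurbinectedin (y axis); red points are the 647 higher and blue points the 355 lower genes, and the dashed line marks equal change. Most points lie on the same side of 0 on both axes, 505 of the red and 285 of the blue, but closer to 0 on the y axis.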

How the data were processed

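The authors deposited 1 table of raw read counts per library, each with 60649 genes. Per the submitters' processing notes, fastp 0.23.2, STAR 2.7.9 and featureCounts were used with hg38; strand use is not given in the sources used here, so genes that overlap may share reads. All 37258 gene identifiers with the same version in GENCODE 29 had the same start and end there. Symbols matched 60463 identifiers. Depth was 23206414 to 33222162 counts per library, and precision is that of counting these reads plus the spread between libraries.

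Counts were fitted with edgeR 4.0.16 in R 4.3.3: filterByExpr on the 4 groups, TMM, 1 mean per group over all 12 libraries, robust quasi-likelihood test, Benjamini-Hochberg adjustment over all genes tested. Log CPM used a prior count of 2. Gene lists were described by counts of called members and medians, without a test of the list; some genes are in more than 1 list. Named genes are DHODH, DNM1L, the 12 largest rises and falls (called, not overlapping, at least 5 CPM), up to 3 called members per list, and genes that depend on replicate 3; others are said to be chosen later. The groups, the 47 lists and these rules were chosen with earlier results of these data known. The fit was tested on 10 simulated data sets. For the teriflunomide against control comparison with 16403 genes simulated, it recovered 73.8% of 2-fold and 25.4% of 1.5-fold changes. Of the genes called there, 5.84% were false. Genes were drawn independently, so no simulated library had a GC shift like that of teriflunomide replicate 3. Each simulated data set changed fewer genes than were called in the data. Adjusted p-values depend on that share, so the recovery may differ in the data. Alternatives included DESeq2 1.42.0 and voom in limma 3.58.1. Equal replicate numbers did not pair the samples. Some genes that these rules name are not reported here.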

Additional observations from a re-analysis of the deposited data

Results flagged for a closer look

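The effect of teriflunomide differed by whether lurbinectedin was present for 18 of the genes named above, by the interaction term in edgeR with Benjamini-Hochberg adjustment. The difference is the log2 fold change of the combination against lurbinectedin minus that of teriflunomide against control. It was -1.46 for DUSP6, -1.61 for NECTIN4, -1.43 for DRAXIN, -1.40 for ECM1, -1.60 for ACER2, -1.59 for INPP5D, -1.19 for ABCA12, -1.18 for SERPINE2, -1.43 for GADD45A, -1.38 for BTG2, -0.94 for TP53INP1, -1.06 for FAS, -1.27 for JUN, -0.71 for JUND, -1.01 for ATF3 and -1.65 for LIF. It was 0.73 for BNIP3 and 1.37 for LINC00641. The adjusted p ranged from 0.00166 for NECTIN4 to 0.0475 for ATF3. All 18 were also called without teriflunomide replicate 3, a fit that called 616 genes. Without control replicate 1, 2 and 3 the difference was called for 6, 2 and 2 of all genes, so most of the 18 lost the call there. These genes were called first with teriflunomide alone, in libraries that also enter the difference, so its size is a description. No group had the 4 libraries that a test for a single outlying sample needs.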

How the results depend on the processing

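The number of genes called for teriflunomide against control, 1002 in edgeR with TMM (64.6% higher), depended on the processing. It was 1800 with no expression filter, 265 with library size as the only scaling, 283 with only control and teriflunomide in the fit, 1890 with DESeq2, 5467 with voom and sample quality weights and 2106 with a GC offset per library, of which 1120 were higher and 986 lower. Leaving out 1 library at a time gave 216 to 1555, the lowest without control replicate 3 and the highest without teriflunomide replicate 3. It was 248 and 265 without control replicate 1 and 2, and 644 without teriflunomide replicate 2. The difference between the settings with and without lurbinectedin, called for 43 genes, was called for 195, 6, 256 and 2105 genes with no filter, library size only, DESeq2 and voom, and for 2 to 616 when a library was left out (6, 2 and 2 without control replicate 1, 2 and 3, 24 without teriflunomide replicate 2 and 616 without replicate 3). With the replicate number as a block the counts were 415 and 8; deviations of same-numbered samples correlated at 0.0329, -0.106 and -0.0539, so the numbers were not taken to pair the samples. The weights in voom were 0.0798 for teriflunomide replicate 3 and 1.59 to 2.50 for the other control and teriflunomide libraries. The causes of these moves were not tested. The GC offset and a fit to nuclear genes only (999 genes) were chosen after the data were seen. The remaining counts, and the direction of each composition share, kept within 1.5 times or kept their sign.

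Of 87 called genes named here, 38 were called in all 16 alternatives and 49 lost the call in at least 1. Leaving out control replicate 1, 2 and 3 lost 35, 33 and 39 calls. Library size as the only scaling lost 37, and a fit of only control and teriflunomide lost 35. In all 6 fits that left out a library, 48 were called. None of the 87 changed direction. DNM1L, which was not called, changed direction, to -0.0252 with voom and -0.00938 with the GC offset, and ranged from -0.0472 without teriflunomide replicate 3 to 0.263 without teriflunomide replicate 1. With 3 libraries a group, many small changes may be missed. In simulated libraries without the GC shift of replicate 3, 1.5-fold changes were called in 25.4% of cases. Fewer genes were changed there than were called in the data, so this share may differ in the data.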

Other observations

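Further lists gave few calls with all libraries and more without teriflunomide replicate 3. Of 13 tested genes of the YAP, TEAD and Hippo group, 0 were called in edgeR, with 6 at an unadjusted p under 0.05, 4 called by DESeq2 and 9 by voom, and 4 were higher without that library. CCN2, a matricellular target of YAP1 chosen after its values were seen, was at 2.08, 1.97 and 1.31 CPM in control and 3.81, 2.99 and 2.59 CPM with teriflunomide (log2 change 0.82 with an SE of 0.229, edgeR adjusted p = 0.0514; adjusted p 0.0237 without replicate 3). Its replicate 3 was the lowest teriflunomide library. Of 20 tested receptor tyrosine kinases, 1 was higher, RET (0.63, edgeR adjusted p = 0.0425). The count was 0 in each of the 5 fits without another single library and 5 without replicate 3, EGFR among them (0.56, edgeR adjusted p = 0.0400). In the ATF4 list SLC1A5, a glutamine transporter chosen after its values were seen, was at 219, 222 and 222 CPM in control and 162, 143 and 56.6 CPM with teriflunomide (log2 change -0.87 with an SE of 0.260, edgeR adjusted p = 0.0631), and was called without replicate 3 (-0.53, edgeR adjusted p = 0.00168).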
